A study of Mus musculus with 6 samples.

Results

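FXR binding near solute carrier (Slc) genes was examined in mouse liver. The receptor FXR is activated by bile acids, and it binds DNA with its partner RXR, most often at an inverted repeat of the hexamer AGGTCA separated by 1 base (IR1). Solute carriers are membrane proteins that move sugars, amino acids, organic ions, metals, vitamins and lipids across the plasma membrane and the membranes of organelles. In the liver they feed gluconeogenesis, ureagenesis and drug clearance, and family 25 carries metabolites across the inner mitochondrial membrane. The members were all FXR peaks whose nearest gene, as named by the authors, had a symbol starting with Slc and a family number. The rule goes by symbol, so Slc7a6os, Slc13a2os, Slc9a3r1 and Slc9a3r2 are counted under their family although they are not carriers themselves. The 5 genes Slc10a1, Slc51a, Slc51b, Slc27a5 and Slc25a20, which take part in bile acid transport, bile acid conjugation or fatty acid oxidation, were left out by rule.

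Livers came from male mice of strain C57BL/6 in 2 genotypes, and the ages are not given in the sources used here. The control group, labelled WT, was Bcl6 fl/fl, with loxP sites in both Bcl6 alleles and no Cre. The LKO group was Alb-cre, Bcl6 fl/fl, in which albumin-driven Cre deletes the transcriptional repressor BCL6 in hepatocytes, while the other liver cells keep it. No agent was given to either group per the labels. FXR was immunoprecipitated in 2 libraries per genotype, beside 1 input library of unenriched chromatin, and the authors called 1 list of peaks per genotype on its pooled libraries. A peak is therefore present or absent per genotype, with no replicate spread, and whole liver does not tell which cells bound FXR.

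Of 20040 WT peaks, 472 were assigned to a member gene, a share of 2.36% (95% Wilson interval 2.15 to 2.57). Of 12495 LKO peaks, 297 were, or 2.38% (2.12 to 2.66). Merging overlapping peaks gave 526 Slc loci among 22617 loci in either list. They belonged to 191 genes of 46 families, of which 179 had a WT peak, 148 an LKO peak and 136 both. WT replicate 2 was shallow, with 2883717 tags against 19022618 to 22637613 in the other 3 ChIP libraries, so a median Slc peak held an estimated 9.54 tags there and 34.5 to 47 in the others. The inputs held 6935001 and 6964271 tags, and the median Slc peak held under 1 estimated input tag in both genotypes.

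FXR peaks stood near many Slc genes. A WT peak was assigned to 178 of the 370 protein-coding Slc genes of the mouse annotation (48.1%, 43.1 to 53.2) and an LKO peak to 147 (39.7%, 34.9 to 44.8). Over all 21883 protein-coding genes the shares were 35.1% in WT and 26.8% in LKO. The 1 other Slc symbol in the lists had no match among these genes. Assignment to the nearest start is the authors' annotation and does not show that FXR acts on the gene.

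Sequences that carry the IR1 show where the receptor's motif lies in these peaks. With at most 2 of the 12 scored bases different and a search within 100 bp of the peak centre, 54 of 472 WT Slc peaks held an IR1 (11.4%, 8.88 to 14.6), against 11.8% of all WT peaks. In LKO 49 of 297 did (16.5%, 12.7 to 21.1), against 16.2% of all LKO peaks. Windows of equal size 2 kb to either side of the Slc peaks held one in 0.636% (WT) and 0.505% (LKO). The motif share at Slc peaks was thus near that of each whole list and above the upper interval bounds of its flanks, 1.38% and 1.47%. The exact IR1 reads the same on both strands apart from its spacer, and it contains the single hexamer AGGTCA by construction. A site with a substitution in each hexamer need not contain it.

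Of the 243 loci shared by both lists, 36 held an IR1 (14.8%, 10.9 to 19.8). Over all shared peaks the share was 16.6% in the WT list and 16.8% in the LKO list. Of the 36 sites, 10 had 1 substitution and none was exact. These 10 sites are shown with 15 flanking bases, since they are the closest matches to the motif in peaks present in both genotypes. Coordinates here and below are of build mm10. Capitals mark the hexamers and the spacer between them is in lower case. Substitutions give the motif's base, the position counted from 1 at the first capital, and the base in the genome.
Slc9a8 (chr2:167416406-167416448, + strand, substitution T4C): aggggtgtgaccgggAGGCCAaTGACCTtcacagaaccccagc
Slc30a1 (chr1:191877850-191877892, + strand, substitution C5T): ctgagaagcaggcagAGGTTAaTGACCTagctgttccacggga
Slc22a7 (chr17:46452236-46452278, + strand, substitution T4G): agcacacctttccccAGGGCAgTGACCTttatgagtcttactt
Slc23a2 (chr2:132103504-132103546, + strand, substitution G3A): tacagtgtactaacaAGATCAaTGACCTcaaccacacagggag
Slc40a1 (chr1:45905333-45905375, + strand, substitution T8A): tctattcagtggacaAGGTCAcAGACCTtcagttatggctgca
Slc40a1 (chr1:45920927-45920969, + strand, substitution A10T): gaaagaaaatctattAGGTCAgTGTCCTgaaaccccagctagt
Slc15a1 (chr14:121474111-121474153, + strand, substitution T4G): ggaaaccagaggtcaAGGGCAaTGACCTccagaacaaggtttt
Slc3a1 (chr17:85040408-85040450, + strand, substitution G3T): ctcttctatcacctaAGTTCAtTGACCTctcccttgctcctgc
Slc16a12 (chr19:34748813-34748855, + strand, substitution A10C): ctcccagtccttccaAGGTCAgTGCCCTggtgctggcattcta
Slc22a28 (chr19:8097909-8097951, + strand, substitution T8G): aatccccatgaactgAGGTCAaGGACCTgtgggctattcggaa
The strongest of these sites lay 5304 bp upstream of Slc9a8, which encodes a sodium-hydrogen exchanger. The iron exporter gene Slc40a1 (ferroportin) had a pair of such sites, 1 in intron 3 and 1 in intergenic sequence 20222 bp downstream of its start. Among the others are Slc30a1, a zinc exporter, Slc22a7, an organic anion transporter, Slc23a2, a vitamin C transporter, and Slc15a1, a peptide transporter.

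Peaks found in 1 list only held the remaining close matches. An IR1 with at most 2 substitutions was found at 18 of 229 WT-only loci (7.86%, 5.03 to 12.1; all WT-only peaks 7.16%). It was found at 13 of 54 LKO-only loci (24.1%, 14.6 to 36.9), where all LKO-only peaks gave 14.2%. Sites with 1 substitution or none were found at 6 of these loci, and the 5 shown include both exact matches of the 526 loci. The Slc7a11 site lies in the transcript's last exon and is shown without flanks.
Slc39a11 (chr11:113559632-113559674, + strand, no substitution): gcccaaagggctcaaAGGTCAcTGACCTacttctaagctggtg
Slc44a1 (chr4:53439970-53440012, + strand, substitution A1G): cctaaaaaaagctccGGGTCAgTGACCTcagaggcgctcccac
Slc38a2 (chr15:96791489-96791531, + strand, substitution C12A): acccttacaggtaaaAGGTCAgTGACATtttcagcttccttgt
Slc38a4 (chr15:96874986-96875028, + strand, substitution C12A): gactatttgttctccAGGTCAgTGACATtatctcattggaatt
Slc7a11 (chr3:50370245-50370257, + strand, no substitution): AGGTCAtTGACCT
The exact matches belonged to weak peaks, at Slc39a11 (a zinc transporter; strength percentile 23 in WT) and at Slc7a11 (the cystine-glutamate exchanger; percentile 21.2 in LKO). Slc38a2 and Slc38a4, sodium-coupled amino acid transporters that neighbour each other on chromosome 15, had LKO-only peaks with identical hexamers and the same substitution, C12A. The Slc44a1 site lies 383 bp upstream of the start of a choline transporter gene.

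A looser form of the repeat was searched after the sequences had been seen, with A or G allowed at the hexamer's first base and G or T at the third, and at most 1 mismatch. It was found in 44 WT Slc peaks (9.32%; all WT peaks 9.92%) and 44 LKO Slc peaks (14.8%; all LKO peaks 14.2%). Windows 2 kb away held it in 0.424% and 0.337%. Of the 34 shared loci with this form, 20 also held the IR1 as first defined. Exact matches at 4 shared loci without an IR1 of at most 1 substitution are shown with the hexamers in capitals.
Slc35g1 (chr19:38372561-38372603, + strand): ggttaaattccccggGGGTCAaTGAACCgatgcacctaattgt
Slc30a8 (chr15:52458901-52458943, + strand): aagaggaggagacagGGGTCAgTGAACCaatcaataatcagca
Slc1a1 (chr19:28869344-28869386, + strand): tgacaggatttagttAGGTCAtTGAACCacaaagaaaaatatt
Slc22a21 (chr11:54002483-54002525, + strand): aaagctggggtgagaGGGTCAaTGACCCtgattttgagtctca
They were assigned to Slc35g1, Slc30a8 (a zinc transporter), Slc1a1 (a glutamate transporter) and Slc22a21 (a carnitine transporter). The single hexamer AGGTCA, on either strand, was found in 37.5% of WT and 36.7% of LKO Slc peaks, and in 13% and 14.1% of the windows 2 kb away. All peaks gave 40.3% and 41.3%. The motif TTCNNNGAA, which is read by STAT factors and is close to the site that BCL6 can bind, was found in 6.36% of WT and 5.72% of LKO Slc peaks, against 5.19% and 3.70% of the windows 2 kb away. Over all peaks it was found in 6.56% and 6.39%, and in 6.15% and 6.11% of their windows 2 kb away. At Slc genes the intervals of peaks and windows overlapped in WT (4.49 to 8.93 and 3.95 to 6.80) and in LKO (3.60 to 8.97 and 2.46 to 5.54).

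The first comparison asked which Slc peaks of 1 genotype were also called in the other. A total of 243 peaks overlapped by at least 1 bp. They were 51.5% of the WT Slc peaks (47 to 56.0), where 49.5% of all WT peaks had an LKO partner, and 81.8% of the LKO Slc peaks (77.0 to 85.8), where 79.4% of all LKO peaks had a WT partner. The Slc peaks were near both backgrounds. Overlap followed strength, the mean of the log2 ChIP values of the list: 70.6% of the WT Slc peaks above the median of all WT peaks were shared and 25.5% of those below, where all WT peaks gave 75.5% and 23.5%. In LKO the shares were 93.3% and 70.1%, where all LKO peaks gave 92.3% and 66.4%. In both genotypes the stronger Slc peaks were thus shared more often, as over all peaks. Of the WT-only Slc peaks 34.9% were above the median (29.1 to 41.3), against 24.2% of all WT-only peaks. The WT Slc peaks were stronger to begin with: 57.6% were above that median (53.1 to 62.0), where 50% of all WT peaks were. The part of this in the higher WT-only share was not tested. With at least 10 estimated tags required in both replicates, 169 of 228 WT Slc peaks were shared (74.1%), and in LKO 242 of 296 (81.8%). The shared percentage of all peaks under this filter was not computed, so these shares have no background. Partners lay close, with a median of 17 bp between centres, and each pair carried the same gene name.

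**Figure D1:**
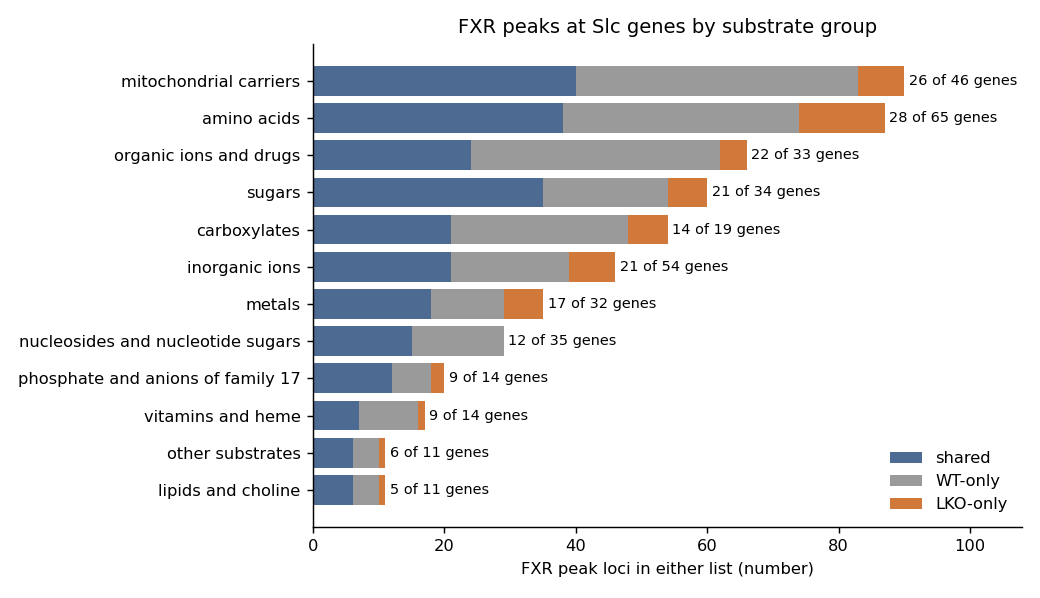
FXR peak loci in either list (number, horizontal axis) for 12 substrate groups, split into shared, WT-only and LKO-only loci; the text beside each bar gives the genes with a locus among the protein-coding genes of the group. Mitochondrial carriers (90 loci) and amino acid transporters (87 loci) had the longest bars, and nucleoside and nucleotide sugar transporters had no LKO-only locus.

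By substrate, mitochondrial carriers (family 25) had 83 WT and 47 LKO peaks at 26 of 46 genes, with 40 shared. Amino acid transporters had 74 WT and 51 LKO peaks at 28 of 65 genes, with 38 shared. Sugar transporters had 54 and 41 peaks at 21 of 34 genes, with 35 shared. Transporters of organic ions and drugs had 62 and 28 peaks at 22 of 33 genes, with 24 shared. The shared percentage of WT peaks was lowest for organic ions and drugs (38.7%, 27.6 to 51.2) and among the highest for sugars (64.8%, 51.5 to 76.2). The intervals of these 2 groups just fail to overlap, but they were picked as extremes among 12, no test was made between groups, and peaks of 1 gene are not independent. The carboxylate group held 48 WT and 27 LKO peaks, the inorganic ion group 39 and 28, and the metal group 29 and 24. Nucleoside and nucleotide sugar transporters had 29 and 15, and all 15 LKO peaks were shared. The remaining groups had 18 or fewer WT peaks each.

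Most Slc peaks lay away from promoters. The authors' annotation placed 50 of 472 WT peaks in a promoter (10.6%, 8.13 to 13.7; all WT peaks 11.4%) and 31 of 297 LKO peaks (10.4%, 7.45 to 14.4; all 11.3%). Introns held 50.2% and 50.5%, and intergenic sequence 33.3% in both. Of the 526 loci, 280 lay inside the gene they were assigned to (53.2%), 196 between genes and 50 inside another protein-coding gene. All 6 distal loci inside Shb were assigned to Slc25a51, and 5 loci inside Ttbk1 to Slc22a7, so those transporters are the nearest start but not the host gene. Of the 55 promoter loci, 25 were shared, 25 were WT-only and 5 LKO-only. The 25 shared were 50% of the WT promoter peaks, where 50.6% of all WT promoter peaks were shared. The input was above the 95th percentile of its list at 11 of the promoter loci in WT and 4 in LKO, and its part in those peaks was not tested.

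The strongest shared Slc peaks were picked by the highest mean strength percentile over the 2 lists. A high place in both lists therefore follows from the choice. Levels are given as the log2 value of a library minus the median of all 9918 shared peaks in that library, since the 2 tables were scaled separately, and no test was made between them. Values are listed as WT replicate 1, WT replicate 2, LKO replicate 1 and LKO replicate 2 throughout. The peak 5304 bp upstream of Slc9a8 (chr2:167416301-167416511, build mm10, intergenic) read 3.50, 3.90, 3.88 and 4.15. It ranked 10 of all WT peaks and 2 of all LKO peaks, and the libraries of the genotypes overlapped. Its sequence is given whole because it is the highest Slc peak in both lists, with the IR1 hexamers in capitals.
Slc9a8 (chr2:167416301-167416511, + strand): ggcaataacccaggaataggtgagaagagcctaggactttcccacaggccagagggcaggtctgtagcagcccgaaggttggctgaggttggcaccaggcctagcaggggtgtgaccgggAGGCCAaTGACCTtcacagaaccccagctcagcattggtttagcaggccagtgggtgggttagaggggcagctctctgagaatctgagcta
The estimated input tags at this peak were 2.79 in WT and 0.619 in LKO, against 207 to 722 ChIP tags.

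The next strongest peak lay in intron 2 of Slc8b1 (chr5:120514372-120514582), the mitochondrial sodium-calcium exchanger, and read 3.39, 3.56, 3.63 and 3.69. Both LKO libraries were above both WT libraries by a small margin, a mean difference of 0.19 with a pooled SD of 0.09. Slc6a6, which imports taurine, the amino acid joined to bile acids in mice, had a pair of peaks of this rank in its intron 2. The stronger one, at chr6:91706277-91706487, read 2.79, 3.14, 2.95 and 2.99, and the other, at chr6:91719128-91719338, read 2.70, 2.77, 2.57 and 2.99. In both, the genotypes overlapped and the difference of means was 0.00 and 0.04.

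The promoter peak of Slc25a47, a mitochondrial carrier made mainly in liver, lay 112 bp upstream of the start and read 2.57, 2.97, 2.79 and 3.0. The genotypes overlapped. A second promoter peak at chr12:108850417-108850627, 607 bp upstream, read 1.83, 1.71, 1.53 and 1.39, with both LKO libraries below both WT libraries (difference -0.31, pooled SD 0.09). The stronger peak is shown because it is the only promoter peak among the 10 strongest. Its sequence held 1 single hexamer, in capitals on the strand opposite to the one shown, and no IR1 within 2 substitutions.
Slc25a47 (chr12:108850912-108851122, + strand): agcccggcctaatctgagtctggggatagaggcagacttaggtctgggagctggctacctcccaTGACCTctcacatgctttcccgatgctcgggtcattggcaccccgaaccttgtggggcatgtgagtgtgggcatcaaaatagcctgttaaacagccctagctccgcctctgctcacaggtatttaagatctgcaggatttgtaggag

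Slc2a2 (GLUT2), the main glucose transporter of hepatocytes, had its strongest peak in intron 4 (chr3:28714448-28714658), reading 2.61, 2.82, 2.55 and 2.74. Slc5a1 (SGLT1), a sodium-glucose cotransporter, read 2.74, 3.09, 2.80 and 2.87 in its intron 2 (chr5:33123803-33124013). Both peaks overlapped between genotypes. Slc17a4, an organic anion and phosphate transporter, read 2.55, 3.01, 2.96 and 3.19 at chr13:23913782-23913992 in intron 1, again with overlap. At the intergenic peaks of Slc35g1 (chr19:38372472-38372682; 2.55, 2.73, 2.92 and 2.93) and of the monocarboxylate transporter Slc16a7 (chr10:125494775-125494985; 2.18, 2.26, 2.46 and 2.54) both LKO libraries were above both WT libraries. The differences were 0.29 and 0.28, with pooled SDs of 0.09 and 0.06. Of the 10 strongest, 7 overlapped, 3 were higher and 0 lower in LKO. Over all shared peaks the libraries did not overlap at 55.1%, with 29.8% higher and 25.2% lower in LKO. With 10 peaks picked by strength, the counts are a description.

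**Figure D2:**
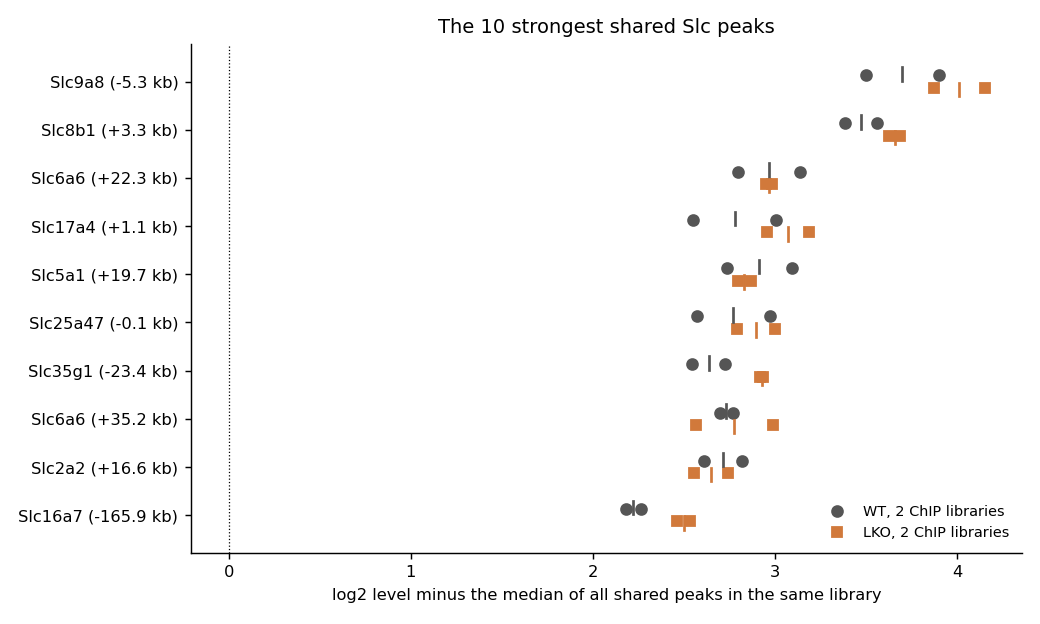
Log2 level relative to the median of all shared peaks in the same library (horizontal axis) at the 10 strongest shared Slc peaks, named by gene and distance from its start; circles are the 2 WT libraries, squares the 2 LKO libraries and short lines their means. All points lie above 2, and circles and squares overlap at 7 of the 10 peaks. Over all shared peaks the libraries did not overlap at 55.1%.

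The input was above the 95th percentile of its list in 1 or both tables at 5 of these 10 peaks, with at most 4.70 estimated input tags where the ChIP libraries held 66.6 to 722. Slc peaks as a whole were above that percentile in 5.72% (WT) and 6.06% (LKO), where 5% is the share by construction. The median strength percentile was 56.0 for WT Slc peaks and 51.3 for LKO Slc peaks. The top 1% of strength held 10 WT Slc peaks (2.12%, 1.15 to 3.86) and 6 LKO Slc peaks (2.02%, 0.929 to 4.34).

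Among the other groups, the strongest shared peaks were weaker. Slc30a1 had intergenic peaks 25690 and 28900 bp upstream (chr1:191880986-191881196 and chr1:191877776-191877986). They read 2.01, 1.96, 2.09 and 2.33, and 1.71, 1.74, 2.17 and 2.05, with both LKO libraries above both WT libraries in each. The peak 13749 bp upstream of Slc22a7 that carries the IR1 shown above read 1.23, 0.78, 1.64 and 2.10, also higher in both LKO libraries. A stronger peak 16954 bp upstream of it (chr17:46455326-46455536) read 2.32, 1.98, 2.05 and 2.07, and the genotypes overlapped there. Both are inside Ttbk1.

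Slc22a23, an orphan carrier of the organic ion family, had its strongest peak 117639 bp upstream, reading 2.36, 2.34, 2.24 and 2.33, with a difference of -0.06. The Slc16a12 peak 10003 bp upstream of this creatine transporter gene read 1.50, 1.71, 1.12 and 1.18, lower in both LKO libraries. Slc17a2, next to Slc17a4 in a cluster of related genes, read 1.65, 1.83, 2.15 and 2.24, higher in both LKO libraries. Slc25a51, which carries NAD+ into mitochondria, read 1.69, 1.93, 2.15 and 1.81 at its strongest locus, with overlap.

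The promoter peak of Slc35d1, a nucleotide sugar transporter, read 1.93, 2.15, 2.00 and 2.21 and the genotypes overlapped, but the input there held 16.8 and 12.2 estimated tags. Slc27a4, a fatty acid transporter and acyl-CoA synthetase, read 1.11, 1.11, 0.81 and 0.63 at its promoter, lower in both LKO libraries, with 7.6 and 3.24 input tags. The remaining leading peaks, of Slc44a1 (-26345 bp), Slc15a1, Slc15a4 and Slc23a2, read between 0.15 and 1.84. The Slc23a2 peak 41556 bp from the start read 0.83, 0.91, 1.82 and 1.84, a difference of 0.96 with a pooled SD of 0.04. The other shared peaks of this gene, at 22010 and 13783 bp, were lower in both LKO libraries, with differences of -0.80 and -0.61. Of the 7 shared peaks of vitamin and heme transporters, 1 was higher and 4 were lower in LKO, with a median difference of -0.61. Over all shared peaks 29.8% were higher and 25.2% lower, and 3 of the 7 belonged to Slc23a2. The vitamin importer gene Slc5a6, described below, was grouped by its family number with the sugar transporters and is not among the 7.

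Over all 243 shared Slc peaks the differences were centred near 0. The median LKO minus WT difference was 0.00, against 0.03 over all shared peaks, with quartiles of -0.32 and 0.38 and a median pooled SD of 0.25. Both LKO libraries were above both WT libraries at 70 peaks (28.8%, where 29.8% of all shared peaks were) and below at 68 (28%, where 25.2% were). The remaining 105 overlapped. Read by size, 80 peaks were higher and 78 lower in LKO by more than their pooled SD, and 85 were within it. These shares were near those of all shared peaks.

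**Figure D3:**
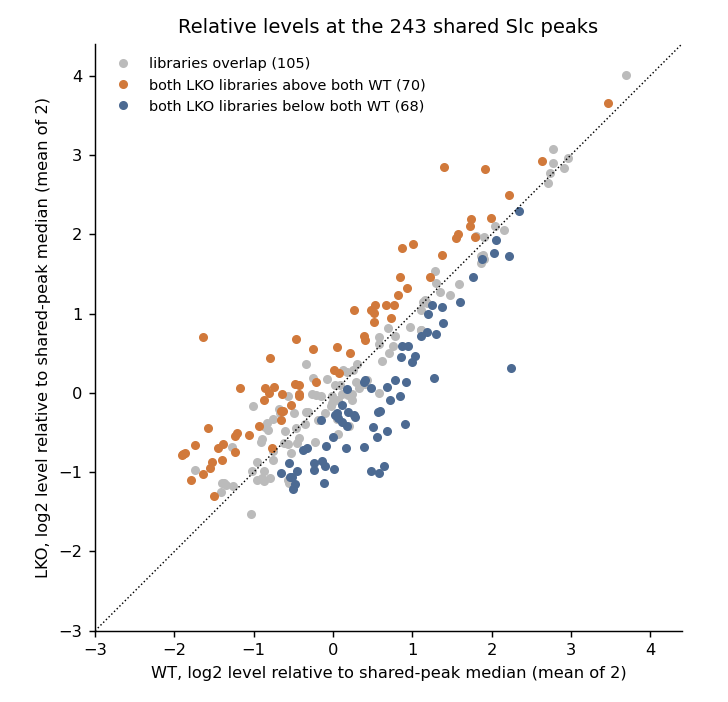
Mean log2 level of the 2 LKO libraries (vertical axis) against that of the 2 WT libraries (horizontal axis) at the 243 shared Slc peaks, each relative to the median of all shared peaks in the same library; the dotted line marks equal values. Peaks above (70) and below (68) the line without overlap of libraries are about as many.

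Single peaks differed by more. The 5 shared peaks with the largest relative rise were those of Slc14a2, Slc24a3, Slc5a6, Slc16a10 and Slc22a12. At the locus assigned to the urea transporter gene Slc14a2, 189871 bp upstream in an intron of Setbp1, the libraries read -1.57, -1.72, 1.07 and 0.34, a difference of 2.35 with a pooled SD of 0.37. At Slc24a3, a potassium-dependent sodium-calcium exchanger, they read 1.22, 1.58, 2.67 and 3.02 (chr2:145232834-145233044, intron 1), a difference of 1.45 with a pooled SD of 0.25. This peak ranked 1276 in the WT list and 144 in the LKO list, and the LKO input held 4.34 estimated tags there, above the 95th percentile, whose part in the difference was not tested.

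Slc5a6, which imports biotin and pantothenate, read -0.63, -0.97, 0.74 and 0.15. Slc16a10, a transporter of aromatic amino acids, read -0.94, -1.40, 0.32 and -0.21 at a peak 45338 bp upstream. Slc22a12, a urate transporter gene, read 0.00, -0.93, 0.49 and 0.86 at a peak inside Nrxn2. In all 5 the LKO libraries were above both WT libraries. Without the shallow WT replicate 2 the differences ran from 0.67 to 2.27, in place of 1.14 to 2.35, and the 0.67 belonged to Slc22a12.

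The 5 largest falls were at Slc46a3, Slc2a5, Slc22a28, Slc25a5 and Slc45a1. Slc46a3, a lysosomal transporter, read 2.21, 2.27, 0.11 and 0.52 at an intergenic peak 8715 bp upstream (chr5:147903425-147903635), a difference of -1.92 with a pooled SD of 0.21. It ranked 393 in WT and 3741 in LKO. Slc2a5 (GLUT5), a fructose transporter, read 0.73, 0.42, -0.79 and -1.22 in its intron 5 (chr4:150128742-150128952), a difference of -1.59.

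Slc22a28, of the organic ion family, read 0.39, 0.90, -1.41 and -0.43 at the IR1 site shown above. Slc25a5, the adenine nucleotide exchanger ANT2, read 0.66, 0.30, -1.18 and -0.80 at a peak 10515 bp downstream of its start on chromosome X. The Slc45a1 peak 82686 bp upstream read 0.90, 0.91, -0.80 and 0.02. In all 5 the LKO libraries were below both WT libraries, and without WT replicate 2 the differences ran from -1.89 to -1.29. These 10 peaks were picked for the size of their difference, so that size is a description.

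**Figure D4:**
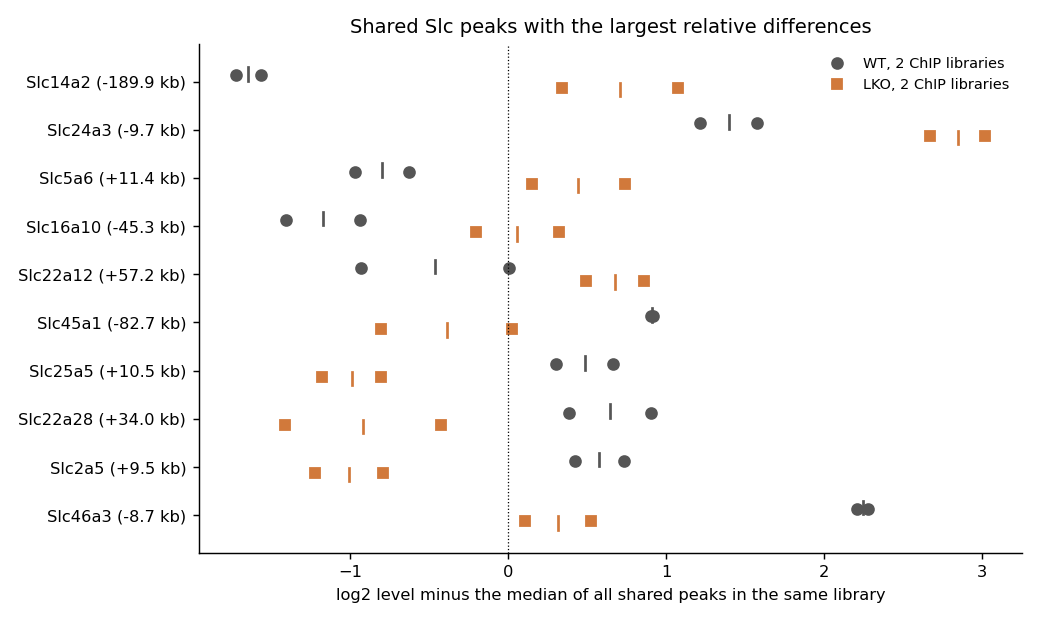
Log2 level relative to the median of all shared peaks in the same library (horizontal axis) at the 5 shared Slc peaks with the largest relative rise and the 5 with the largest fall among those whose libraries do not overlap; circles are the 2 WT and squares the 2 LKO libraries. Slc14a2 has the widest gap in one direction (2.35) and Slc46a3 in the other (-1.92).

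WT-only peaks were mostly weak, with a median strength percentile of 34.7, against 75.4 for shared WT Slc peaks. Over all WT peaks the medians were 29.8 and 72.2. LKO-only peaks had a median of 24.8, against 57.6 for shared ones, and over all LKO peaks the medians were 24 and 57.7. The tables give no value for the other genotype at these loci, so how much tag signal it held there was not measured. Of the 229 WT-only loci, 80 were above the median of the WT list (34.9%, 29.1 to 41.3; all WT-only peaks 24.2%). Of all WT Slc peaks, shared or not, 57.6% were above it. Of the 54 LKO-only loci, 10 were above that of the LKO list (18.5%, 10.4 to 30.8; all LKO-only peaks 18.6%).

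The strongest WT-only peak was at the promoter of Slc25a39, the mitochondrial glutathione importer (chr11:102407568-102407778, 156 bp upstream), and read 2.77 and 3.08 in the 2 WT libraries. It ranked 106 of all WT peaks, and its input held 23 estimated tags, against 117 to 435 in the ChIP libraries. The next were the promoter of Slc22a4, an ergothioneine transporter (1.49 and 1.33; input 5.62 tags), intron 2 of Slc22a5, the carnitine transporter (1.07 and 1.38), exon 1 of Slc25a25 (0.60 and 0.80; input 10.6 tags) and a peak 42727 bp downstream of the start of the carnitine exporter gene Slc16a9 (0.50 and 0.55). The input was above the 95th percentile at 3 of these 5, and the part of the input in their absence from the LKO list was not tested.

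The strongest LKO-only peak was the Slc44a1 promoter peak with the IR1 shown above (chr4:53439928-53440132), which read 1.2 and 1.01, with 3.26 input tags. The next were upstream of Slc25a36, a pyrimidine nucleotide carrier (0.96 and 0.57), upstream of Slc45a3 (0.63 and 0.62), in exon 2 of Slc2a10 (0.21 and 0.16), and near Slc15a5 (-0.11 and 0.43). None of these ranked in the top 1000 of the LKO list.

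The number of peaks per gene varied. Of the 191 genes, 72 had 1 locus, while 28 genes had 5 or more WT peaks and 9 had 5 or more LKO peaks. Across 190 genes with a matched length, the number of loci and gene length had a Spearman rho of 0.24, given as a description, since genes share libraries and only genes with a peak enter. Of 119 genes with 2 or more loci, 76 had both shared and unshared ones, 18 had only shared ones and 25 had none shared.

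Slc6a6 had the most peaks, 12 in WT and 11 in LKO, at 13 loci from 66895 bp upstream to 35166 bp downstream of its start. Of the WT peaks, 10 had an LKO partner. LKO was above WT at 4 of these, below at 2 and overlapping at 4. The peak 23752 bp upstream (chr6:91660210-91660420) read 2.08, 1.75, 2.73 and 2.93, higher in LKO. The peak 66895 bp upstream read 1.22, 1.33, 0.00 and 0.38, lower in LKO. The same gene thus held peaks that differed in opposite directions.

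Slc45a1, a proton-associated sugar transporter gene, had 9 loci, all shared, 7 of them in the intergenic stretch from 33227 to 97217 bp upstream and 2 inside Rere. LKO was above at 2, below at 4 and overlapping at 3, with a median difference of -0.32. Slc22a23 had 10 WT and 5 LKO peaks, 5 shared. Slc25a13 (citrin), the mitochondrial aspartate-glutamate carrier of the urea cycle, had 10 WT and 4 LKO peaks, all 4 shared. Its strongest, in intron 2 at chr6:6185160-6185370, read 1.74, 1.85, 2.08 and 1.86, while the WT peak at its promoter (0.02 and 0.49) had no LKO partner. A shared peak lay nearby, 519 bp downstream of the start. Slc25a51 had 7 peaks in each genotype and 6 were shared.

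**Figure D5:**
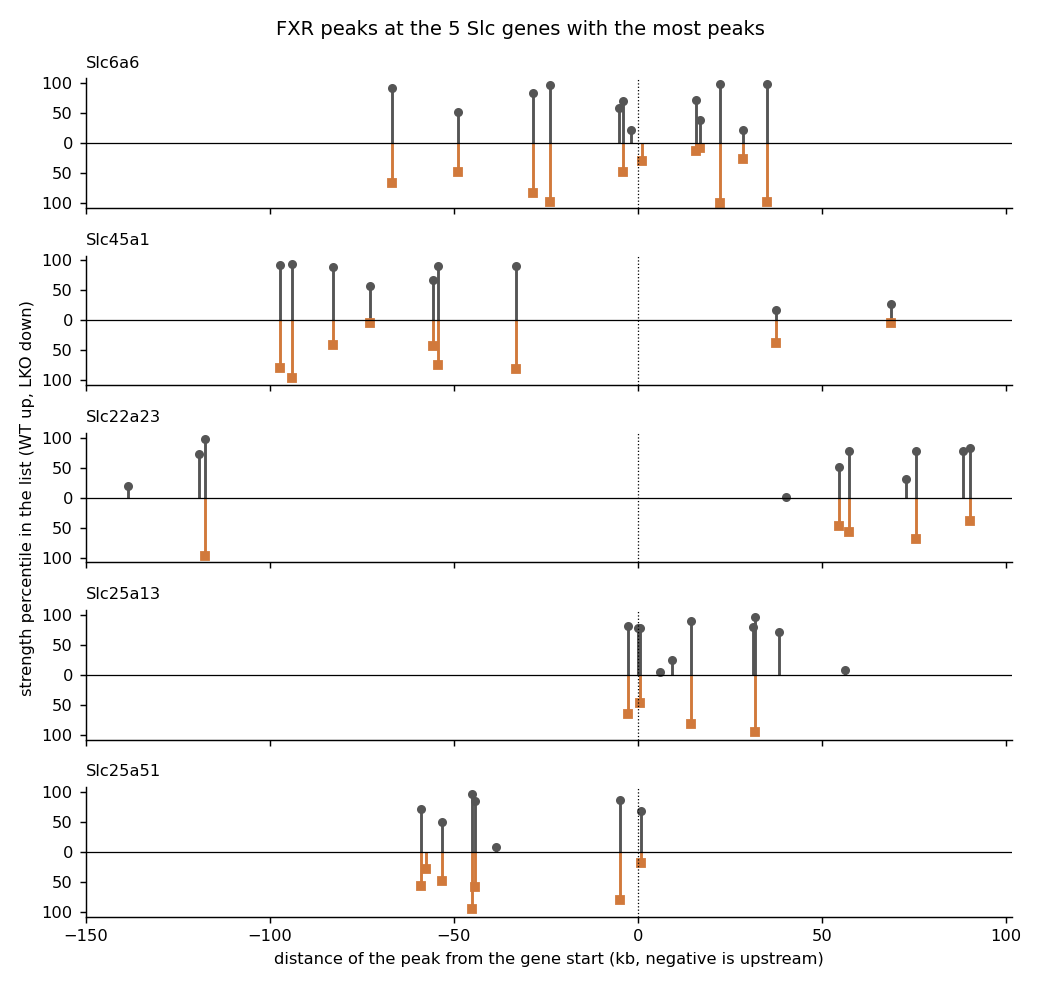
Position of each FXR peak relative to the start of the gene (kb, negative is upstream; horizontal axis) for the 5 Slc genes with the most peaks; stem height is the strength percentile of the peak in its own list, WT upward and LKO downward. At Slc6a6 and Slc45a1 nearly every WT stem has an LKO stem opposite, while at Slc25a13 only 4 of 10 WT stems do.

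Of 60 genes with 2 or more shared peaks, 16 had peaks in both directions, 6 had all peaks higher and 4 had all peaks lower in LKO. With 3 or more shared peaks there were 26 genes, of which 12 had both directions. The same count was not made over all genes, so these numbers have no background. Of all shared peaks, 29.8% were higher and 25.2% lower in LKO. Slc25a25, a calcium-regulated ATP-Mg and phosphate carrier, had 4 of 4 higher, with differences of 0.37, 0.17, 0.92 and 0.65. Its peak with the difference of 0.92 had a wide pooled SD of 0.75. Slc35g1 had 3 of 3 higher (0.52, 0.29 and 0.69). Slc25a10, the mitochondrial dicarboxylate carrier, had 3 of 3 lower (-1.16, -0.30 and -0.26). Slc25a10 was named after its values were seen.

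A list of 30 transporter genes with known liver or bile roles gave 116 WT and 65 LKO peaks, of which 56 were shared. Over all peaks, 49.5% of WT and 79.4% of LKO peaks were shared. A WT peak was found at 25 of the 30, an LKO peak at 25 and a shared peak at 20. Of all protein-coding Slc genes, 48.1% had a WT peak and 39.7% an LKO peak. The list was chosen with earlier results of these data known, so its coverage is a description. LKO was above at 22 of the 56 shared peaks (39.3%), below at 10 (17.9%) and overlapping at 24, with a median difference of -0.02. Over all shared peaks, 29.8% were above and 25.2% below. No peak was assigned to Slc13a5, a citrate importer, Slc1a2, a glutamate importer, Slc3a2, the heavy chain of amino acid exchangers, or Slc30a10, a manganese exporter. Another gene can be nearer to a peak, so this does not show an absence of binding in their regions.

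Among sugar transporters of the list, Slc2a2 had 9 WT and 4 LKO peaks, all 4 shared. Its intron 2 peak (chr3:28705890-28706100) read 1.26, 1.14, 1.08 and 0.91, lower in LKO, with a difference of -0.21 and a pooled SD of 0.11. Slc37a4, the glucose-6-phosphate transporter needed for hepatic glucose release, had a promoter peak with an IR1 of 2 substitutions that read 1.75, 2.05, 1.76 and 1.72 (chr9:44397958-44398168). The genotypes overlapped there. A second promoter peak, 41 bp upstream of another start of Slc37a4, read -0.08, -0.35, 0.06 and 0.23, higher in LKO.

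Among amino acid transporters, Slc7a2, a cationic amino acid transporter, had 4 shared peaks and 1 LKO-only peak, all in intron 1. They read 0.79, 0.89, 1.53 and 1.39 at 7046 bp from the start, higher in LKO, and 0.59, 0.56, -0.45 and -0.02 at 29803 bp, lower in LKO. Slc38a3, a glutamine transporter, read 0.59, 0.18, 0.81 and 0.62 at its promoter (742 bp upstream), higher in LKO, and 0.20, 0.35, -0.06 and -0.54 at 1590 bp upstream, lower in LKO. Slc38a4 had 3 shared peaks and Slc38a2 had 0, with 4 WT-only peaks and 1 LKO-only peak. The Slc38a2 promoter peak, called in WT alone, read 0.19 and 0.51. Slc25a15, the ornithine carrier of the urea cycle, read 0.10, -0.60, 0.44 and 0.67 at its 1 shared peak, higher in LKO.

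Of the WT peaks of organic ion and drug transporters, 38 of 62 were WT-only. The shared ones were 38.7% (27.6 to 51.2), against 49.5% of all WT peaks and 51.5% of WT Slc peaks. This share was the lowest among the substrate groups. Slc22a5 had 6 WT peaks, with a median WT strength percentile of 38.5, and none in LKO. Its intron 2 peak was among the strongest WT-only peaks given above. Slc16a1, a lactate and pyruvate transporter, had 6 WT peaks, of which 1 was shared. The Slc16a1 peaks were weak, all below the 25th percentile of WT strength, and 25.5% of WT Slc peaks below the median had an LKO partner. Slc47a1, which exports organic cations into bile, read -0.16, 0.29, -1.06 and 0.02 at its promoter, and the genotypes overlapped. Slc27a2, a fatty acid transporter and acyl-CoA synthetase, had 2 shared peaks. Slc10a2, the bile acid importer of ileum and bile duct cells, had 2 WT-only peaks and 1 LKO-only peak at separate positions.

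Among metal transporters, Slc40a1 read 1.17, 1.05, 0.90 and 1.19 at its downstream peak with the IR1, where the genotypes overlapped, and 0.74, 0.30, 0.96 and 1.05 at its intron 3 peak, higher in LKO. Slc39a14, an importer of zinc and iron, had 4 peaks in each genotype, all shared, of which 2 were lower in LKO and 2 overlapped. Slc39a4, a zinc importer, had 1 peak in each list within 1 kb of its start, 336 bp apart, which did not overlap. Slc11a2, an iron importer, had 1 LKO-only peak. Slc29a1, a nucleoside transporter, had 2 shared peaks with overlap, and Slc4a4, a bicarbonate cotransporter, had 3 shared peaks, 2 higher and 1 lower in LKO. Slc17a1, a phosphate and urate transporter, read 0.34, 0.08, 0.64 and 0.37 at its promoter, higher in LKO.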

How the data were processed

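FXR ChIP-seq was measured in 6 libraries, 2 ChIP and 1 input per genotype, and samples were grouped by their labels. Per the labels and the study's methods, liver chromatin was crosslinked with DSG and formaldehyde, immunoprecipitated with antibody E4B8P and sequenced as single-end reads. The authors aligned reads to mm10, kept unique alignments and used HOMER. The submitters' processing notes name Bowtie 1.2 and HOMER 4.10. The authors pooled the ChIP libraries of each genotype, called peaks against the matching input, and kept those with an adjusted p under 0.05 and a log2 fold over 1. The deposited fold, p-value and adjusted p-value columns compare ChIP with input and were not used.

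The deposited tag columns are not whole numbers and were taken as log2 values, most likely regularized log2 tags estimated together for the 3 libraries in a table, which draws low values together. Peak Score, as deposited, holds a signal, the pooled tags scaled to 10000000, and was used as an alternative measure of strength. The 2 tables were scaled separately, so no test was made between genotypes, and tags were estimated as 2 to the power of the value times the library total over the mean total of its table. Peaks overlapping by at least 1 bp were shared. Levels were centred on the median of shared peaks in each library. The pooled SD is the root mean of the 2 within-genotype variances. Nothing states whether replicates were separate animals, so spreads may be technical. Intervals are 95% Wilson intervals, cover counting error over peaks only, and treat peaks as independent.

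Sequence came from GRCm38.p6, which has mm10 coordinates: 0 peaks passed a chromosome end, and 86.8% of 583 Slc peaks matched by gene ID had a TSS distance within 2 bp of a RefSeq start. Gene names and annotation classes are those of the authors. Sequence of chromosome 18 was not printed. The code was tested on simulated data, where 100% of 2498 planted overlaps and 100% of 1000 planted IR1 were found, with 0% and 0.8% called among 2502 peaks and 1000 windows without one. Peaks named are the 10 strongest shared, the 2 strongest shared per substrate group, the 5 strongest of each list alone, the 5 largest rises and falls without overlap of libraries, the 5 genes with the most peaks, and 30 liver transporter genes. The members and lists were chosen with earlier results of these data known. Tools were pysam 0.24.0, pandas 2.3.3, numpy 2.4.6, scipy 1.17.1 and matplotlib 3.10.9 under Python 3.11.15. The values of 1 gene of the liver list are not reported here.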

Additional observations from a re-analysis of the deposited data

How the results depend on the processing

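No paired analysis was possible because the results come from no test, and no label ties a WT replicate to an LKO replicate. Of 49 alternative values for 12 results, 39 stayed within the Wilson interval or the replicate spread of the value reported and 10 did not. Keeping peaks at or above the median strength of their list moved the shared percentage to 70.6 (WT) and 93.3 (LKO), the WT share of Slc peaks to 2.71%, the WT promoter share to 14.7% and the LKO IR1 share to 22%. With 10 estimated tags or more in each replicate the WT shared percentage was 74.1. Counting peaks centred within 1 kb of a start gave a WT promoter share of 15.7%. At most 1 IR1 mismatch gave 2.54% (WT) and 4.71% (LKO), and the looser repeat, added after seeing the data, 9.32% and 14.8%. Values as deposited, without centring, moved the median difference to -0.33, the offset between the tables. A reciprocal overlap of 50%, or centres within 100 bp, gave 49.8% (WT) and 79.1% (LKO). The median difference was -0.06 when centred on the mean and ran from -0.01 to 0.02 with 1 ChIP replicate left out, so its sign is not fixed. The median strength percentile ran from 52.9 to 58.6 (WT) and 50.9 to 51.4 (LKO) with 1 replicate left out. The shallow WT replicate 2 limits what weak WT peaks can show.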
